A study of Mus musculus with 8 samples.

Results

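The microRNAs (miRNAs) named miR-199 and miR-214 were followed in the lungs of mouse dams that had received carbon black particles or water during pregnancy. Of 611 mouse miRNAs on the array, 5 are named miR-199 or miR-214, and all 5 passed the detection filter: miR-199a-3p, miR-199a-5p, miR-199b*, miR-214 and miR-214*. The Printex 90 group consisted of 4 lung samples from female C57BL/6 mice (Bom Tac in the study's title) instilled in the trachea with Printex 90, a commercial carbon black nanoparticle. The animals received 0.067 mg in water on each of gestational days 7, 10, 15 and 18, 0.268 mg in all. The vehicle control group consisted of 4 lung samples from dams of that strain given nanopure water on that schedule, and lungs of both groups were collected at weaning, 26 to 27 days after exposure. The labels give neither ages nor any pooling of lungs, and nothing states that the 4 samples of a group were 4 animals, so p-values cover the spread among samples, which may be technical. Whole lung was measured, so fewer cells of a type and less miRNA per cell cannot be told apart.

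A miRNA is cut from a hairpin precursor, whose arms give a 5p and a 3p strand. The strand loaded into the silencing complex pairs with messenger RNAs mainly through its seed, and in the older names on this array an asterisk marks the strand once regarded as the lesser one. miR-199a and miR-214 are expressed mainly in mesenchymal cells such as fibroblasts, pericytes and smooth muscle cells. In the mouse the transcription factor Twist1 drives their common precursor, the long non-coding RNA Dnm3os. miR-199a-5p represses caveolin-1 in human lung fibroblasts, and miR-214 represses the sodium-calcium exchanger Ncx1 in the mouse heart.

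The mature sequences are shown because they set what the probes can tell apart. RefSeq (GRCm38.p6) held 4 of the 5 members, with miR-214 listed as miR-214-3p and miR-214* as miR-214-5p, and miR-199b* is named only. Capitals mark the seed, bases 2 to 8.
miR-199a-3p: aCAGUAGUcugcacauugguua
miR-199a-5p: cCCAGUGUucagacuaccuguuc
miR-214: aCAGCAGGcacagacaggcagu
miR-214*: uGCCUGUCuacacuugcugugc
The 4 seeds differ from each other. RefSeq lists the 22 bases of miR-199a-3p under the name miR-199b-3p as well, so the array name miR-199a-3p covers a product of 3 hairpins. The seed of miR-214 is also that of miR-761 (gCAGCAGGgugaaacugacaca), which was on the array, was detected in 1 Printex 90 sample and 0 vehicle control samples, and was not tested.

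RefSeq lists 4 hairpins under the names of these miRNAs, printed with the RefSeq mature strands in capitals to show which strands are shared between loci.
Mir199a-2: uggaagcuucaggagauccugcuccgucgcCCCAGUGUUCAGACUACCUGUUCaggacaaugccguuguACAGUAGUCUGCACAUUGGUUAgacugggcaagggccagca
Mir214: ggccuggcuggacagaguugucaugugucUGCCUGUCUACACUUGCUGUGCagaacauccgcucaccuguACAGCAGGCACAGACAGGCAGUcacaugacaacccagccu
Mir199b: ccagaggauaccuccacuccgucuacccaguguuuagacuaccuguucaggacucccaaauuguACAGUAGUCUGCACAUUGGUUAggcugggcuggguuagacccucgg
Mir199a-1: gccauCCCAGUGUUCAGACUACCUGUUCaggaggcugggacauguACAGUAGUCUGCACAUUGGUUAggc
In GRCm38.p6, Mir199a-2 (chr1:162217814-162217923, plus strand) and Mir214 (chr1:162223368-162223477, plus strand) are separated by 5444 bases. Both lie inside the span of the long non-coding RNA gene Dnm3os (chr1:162217623-162225550), which itself lies inside the span of Dnm3. Mir199b (chr2:32318460-32318569, plus strand) lies inside the span of Dnm1, and Mir199a-1 (chr9:21496495-21496564, minus strand) inside that of Dnm2; these 3 genes code for dynamins, GTPases that pinch off membrane vesicles. The sequence of miR-199a-3p stands in 3 of these hairpins and that of miR-199a-5p in 2. The closest stretch of the Mir199b hairpin differs from the 23 bases of miR-199a-5p by 1 substitution, C10U, counted from the 5′ end of miR-199a-5p. Signal from Dnm3os therefore cannot be separated from signal of the other loci for the miR-199a strands, whereas RefSeq lists miR-214 from Mir214 alone. RefSeq lists no mature strand in the stretch of Mir199b that is close to miR-199a-5p. Whether the probes of miR-199b* and miR-199a-5p cross-react was not tested.

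Signals came from 8 one-colour arrays on 1 slide, read in 1 scan. The Printex 90 samples occupied slide row 2 and the vehicle controls row 1, so row and exposure cannot be told apart. Signals are given relative to a scaling value of each array, the 75th percentile of those 240 mouse miRNAs that all 8 arrays detected. The scaling value ran from 580.8 to 720.6 intensity units in Printex 90 samples and from 628.4 to 804.7 in vehicle controls, with 248 to 283 and 251 to 283 mouse miRNAs detected. Signals of different miRNAs come from different probes, so the order of levels between members was not read. Precision is limited by having 4 arrays a group.

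The comparison asks whether these mesenchymal miRNAs differed in the lung about 4 weeks after the particle instillations. None of the 5 members passed an adjusted p of 0.05 (limma, 2-sided, Benjamini-Hochberg over 268 tested miRNAs), where 0% of all tested miRNAs were called. At an unadjusted limma p under 0.05 there were 0 members, against 5.6% of all tested miRNAs (2.99% higher and 2.61% lower after Printex 90). The log2 difference, Printex 90 minus vehicle control, was above 0 for 1 member and below 0 for 4, with a median of -0.039. Among those 4, miR-214* passed the filter through detection in 3 vehicle controls and 1 Printex 90 sample, so nothing was concluded from its direction. Over all tested miRNAs 85 were above 0 and 176 below, with a median of -0.046. Samples of both groups overlapped for all 5 members, while the groups did not overlap for 1.49% of all tested miRNAs.

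**Figure D1:**
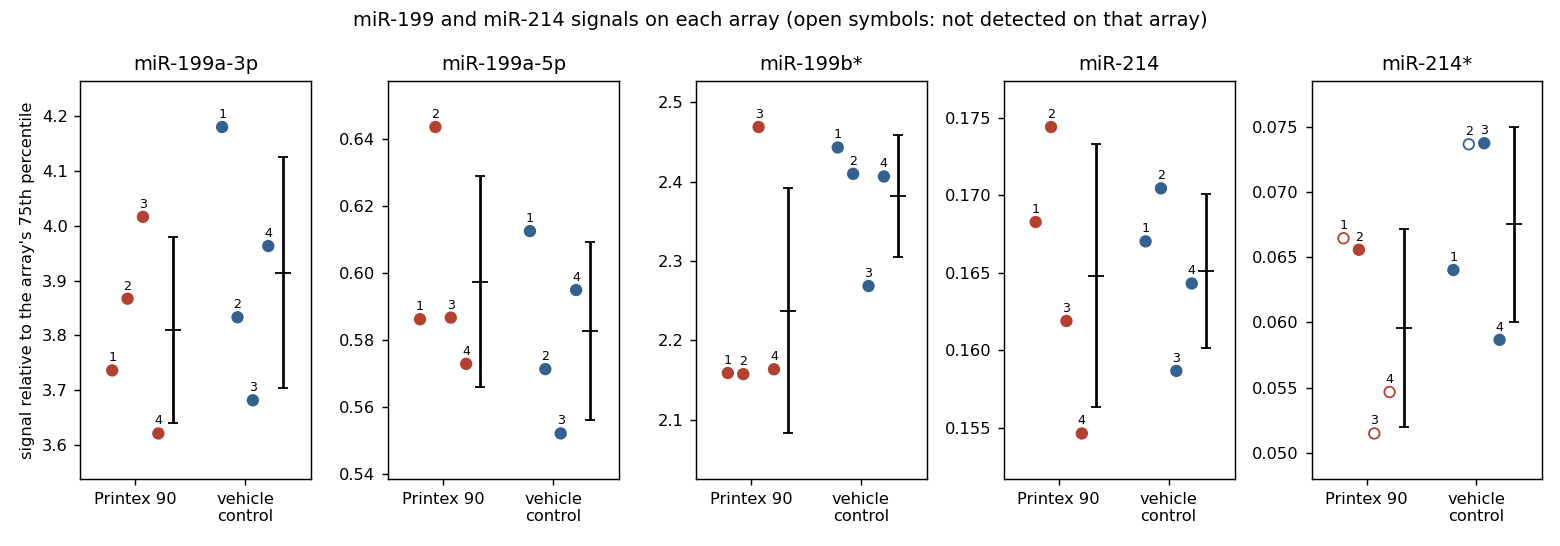
Signal of each member on each array, in units of the array's 75th percentile, with Printex 90 samples in red and vehicle controls in blue, replicate numbers above the points, and mean ± SD (n = 4) as bars. The vertical axes differ between panels and do not start at 0. For miR-199b*, Printex 90 replicates 1, 2 and 4 lie together at 2.16 and replicate 3 at 2.47.

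miR-199a-3p, the strand shared by 3 hairpins, measured 3.74, 3.87, 4.02 and 3.62 in Printex 90 replicates 1 to 4, against 4.18, 3.83, 3.68 and 3.96 in vehicle control replicates 1 to 4. The lowest sample was a Printex 90 lung and the highest a vehicle control lung, and the other samples were interleaved. The means were 3.81 ± 0.170 after Printex 90 and 3.91 ± 0.211 in vehicle controls (SD, n = 4 each). The log2 difference was -0.039 (SE 0.050, limma adjusted p = 0.768), a 0.974-fold ratio with a 95% interval of 0.898 to 1.06.

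miR-199a-5p, the opposite arm of Mir199a-1 and Mir199a-2, measured 0.586, 0.644, 0.587 and 0.573 in Printex 90 samples, against 0.612, 0.571, 0.552 and 0.595 in vehicle controls. Printex 90 replicate 2 was the highest of all 8, and the other 3 Printex 90 samples lay within the range of the controls. The log2 difference was 0.035 (SE 0.049, limma adjusted p = 0.777), a 1.02-fold ratio with a 95% interval of 0.946 to 1.11. Its brighter probe differed by 0.049 and its dimmer probe by -0.035, so the probes did not share a sign.

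miR-199b*, named after the hairpin inside Dnm1, measured 2.16, 2.16, 2.47 and 2.16 in Printex 90 samples, against 2.44, 2.41, 2.27 and 2.41 in vehicle controls. Printex 90 replicates 1, 2 and 4 lay below all 4 controls, and replicate 3 lay above all of them. The means were 2.24 ± 0.154 after Printex 90 and 2.38 ± 0.0774 in vehicle controls (SD, n = 4 each). The log2 difference was -0.092 (SE 0.053, limma adjusted p = 0.706), a 0.938-fold ratio with a 95% interval of 0.861 to 1.02. Both probes were lower, by -0.13 and -0.071 on the log2 scale.

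The miR-199b* value changed with 1 sample and with the scaling. Without Printex 90 replicate 3, at the given scaling, the log2 difference was -0.14 (limma unadjusted p = 0.00438, adjusted p = 0.235). When the percentile was recomputed over the remaining arrays, it was -0.069 (limma adjusted p = 1.00). Replicate 3 was the only Printex 90 sample not below all 4 controls, so leaving it out separated the groups in advance. Nothing was therefore concluded from the small unadjusted limma p at the given scaling. Replicate 3 had the lowest 75th percentile of all arrays, 580.8, and the fewest detected mouse miRNAs, 248. Before scaling, miR-199b* measured 1358, 1555, 1434 and 1502 intensity units in Printex 90 samples, against 1692, 1531, 1425 and 1936 in vehicle controls. On those unscaled values replicate 3 lay among the other Printex 90 samples. The log2 ratio of miR-199b* to miR-199a-5p does not depend on a division by the scaling value. In it replicate 3 was again the highest Printex 90 sample, at 2.07 against 1.88, 1.75 and 1.92 in replicates 1, 2 and 4. Why replicate 3 stood apart was not tested. Under all 33 alternatives tried, the log2 difference of miR-199b* stayed below 0, between -0.16 and -0.017, and the limma adjusted p lay between 0.235 and 1.00.

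miR-214, the 3p strand of Mir214 and the one that represses Ncx1, measured 0.168, 0.174, 0.162 and 0.155 in Printex 90 samples, against 0.167, 0.170, 0.159 and 0.164 in vehicle controls. The control range lay inside that of the Printex 90 samples. The log2 difference was -0.0037 (SE 0.044, limma adjusted p = 0.985), a 0.997-fold ratio with a 95% interval of 0.929 to 1.07. Of the 268 tested miRNAs it ranked 255 by size of the difference. Its direction was not settled, since it lay above 0 with normexp background correction (0.068) and when every mouse miRNA entered the scaling percentile (0.049).

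miR-214*, the 5p strand, was at the edge of detection. It was detected in 1 of 4 Printex 90 samples (replicate 2) and in 3 of 4 vehicle controls (replicates 1, 3 and 4). The signals were 0.0665, 0.0656, 0.0515 and 0.0547 in Printex 90 samples, against 0.0640, 0.0737, 0.0738 and 0.0587 in vehicle controls, and the groups overlapped. The log2 difference was -0.18 (SE 0.12, limma adjusted p = 0.706), a 0.880-fold ratio with a 95% interval of 0.729 to 1.06. Of its 4 probes 2 were well above background on no array, 1 on 1 array and 1 on 4 arrays. The brightest of 39 herpesvirus miRNAs, RNAs that mouse lung should lack, measured 0.241 ± 0.0304 after Printex 90 and 0.241 ± 0.0258 in vehicle controls (SD, n = 4 each). This viral signal also exceeded that of miR-214, 0.165 ± 0.00848 after Printex 90 and 0.165 ± 0.00497 in vehicle controls. Of the 39 viral miRNAs, 3 to 4 were detected on an array, so detection does not by itself show presence. Both probes of miR-214 were well above background on all 8 arrays, and no probe of miR-214* was.

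**Figure D2:**
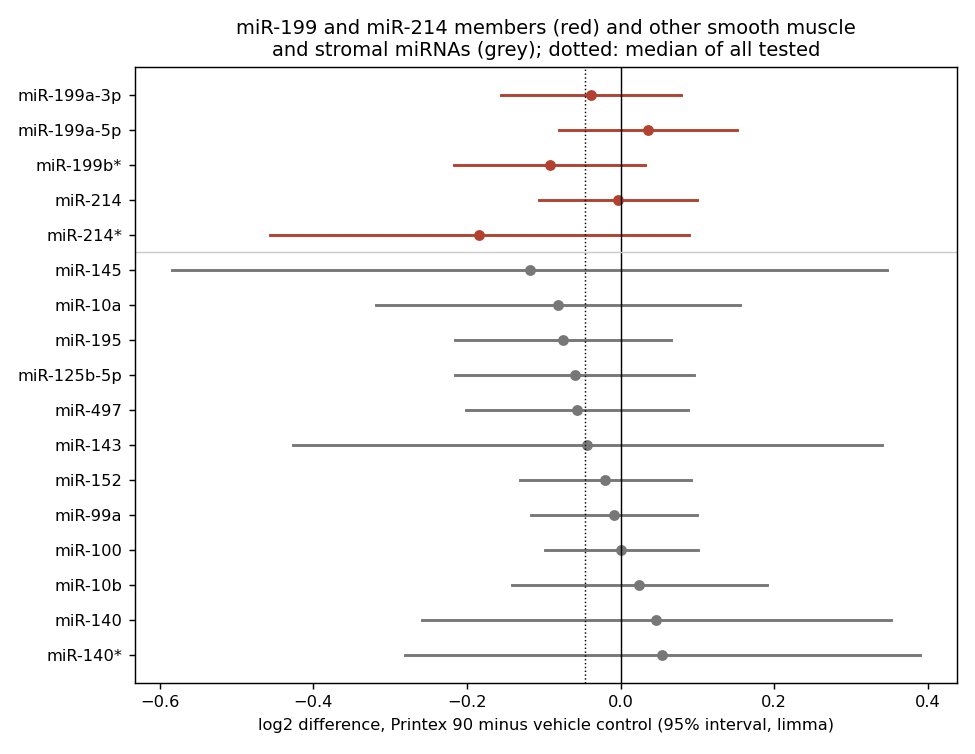
Log2 difference, Printex 90 minus vehicle control, with its 95% interval from limma, for the 5 members in red and the 12 tested miRNAs of the smooth muscle and stromal list in grey. The solid line marks 0, the dotted line the median of all tested miRNAs (-0.046), and all 17 intervals include 0.

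With the scaling used here, the 4 members other than miR-214* were among the steadier signals of the arrays. The SD between samples of a group, pooled over both groups on the log2 scale, was 0.061 for miR-214, 0.070 for miR-199a-5p, 0.071 for miR-199a-3p and 0.076 for miR-199b*, where the median of those 240 miRNAs was 0.12. Counted from the steadiest of the 240, they ranked 19, 32, 34 and 41. The highest of 8 arrays exceeded the lowest by 1.13-fold for miR-214, 1.14-fold for miR-199b*, 1.15-fold for miR-199a-3p and 1.17-fold for miR-199a-5p, against a median of 1.31-fold over the 240. Their 95% intervals reached 1.07-fold (miR-214) to 1.09-fold (miR-199b*) to either side of the estimate. Larger differences than that, beyond the estimate, lay outside the intervals at this scaling only. The SE of miR-199a-3p was 0.050 here, 0.093 with every mouse miRNA in the scaling percentile and 0.044 in the authors' deposited table. That of miR-199a-5p was 0.049 here and 0.13 without scaling. miR-214* was less steady, with an SD of 0.17 and an interval of 1.21-fold to either side.

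**Figure D3:**
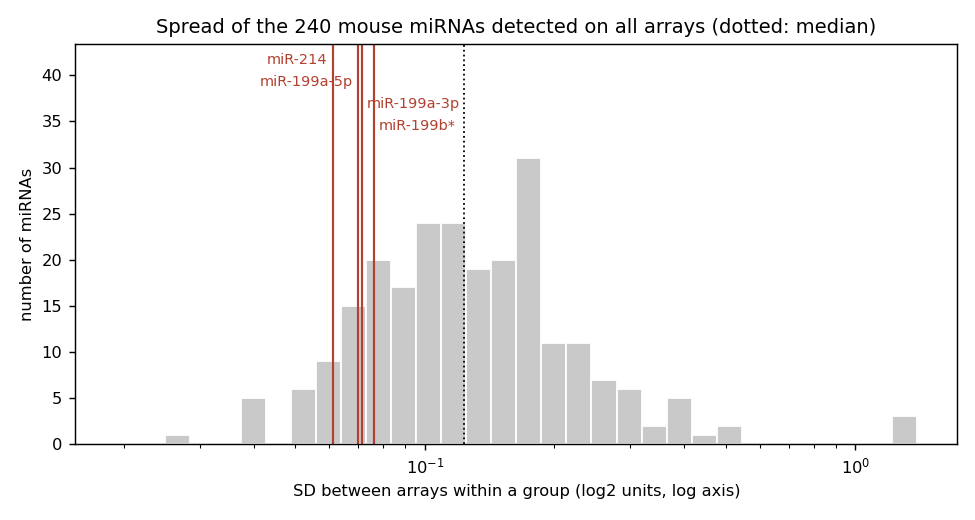
Histogram of the SD between samples of a group (log2 units, log axis, pooled over both groups) for the 240 mouse miRNAs that every array detected, with 4 members as red lines and the median of 0.12 dotted. The members, between 0.061 and 0.076, lie in the lower part of the distribution.

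Repeat spots and probe pairs give the agreement within an array. Each of these 4 members had 2 probes of 10 spots, of which 18 to 20 spots were kept per array. The coefficient of variation between spots of a probe on an array had a median of 3.91% for miR-199a-3p, 4.15% for miR-199b*, 5.58% for miR-199a-5p, 7.38% for miR-214 and 31.0% for miR-214*. It ranged from 3.32% to 14.6% for miR-214 and from 8.04% to 63.5% for miR-214*. The log2 ratio between the 2 probes varied over the 8 arrays by an SD of 0.022 for miR-199a-3p and 0.039 for miR-199b*, smaller than the SD of their summed signals over those arrays (0.069 and 0.086). For miR-199a-5p (0.060 against 0.068) and miR-214 (0.055 against 0.057) the probe ratio varied almost as much as the signal. That ratio counts both probes alike, while the brighter probe makes up most of the summed signal, so its SD is not the error of the sum. The probes of miR-199a-5p read 286 to 400 and 54.4 to 78.4 intensity units over the arrays. Those of miR-214 read 69.8 to 96.7 and 24.2 to 35.5.

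Within an array, the ratio of the 3p to the 5p strand of miR-199a does not depend on a division of all signals by 1 scaling value, and only its difference between groups was read. The log2 ratio was 2.67, 2.59, 2.78 and 2.66 in Printex 90 samples, against 2.77, 2.75, 2.74 and 2.74 in vehicle controls. Printex 90 replicates 1, 2 and 4 lay below all controls and replicate 3 above them. The mean was 2.67 ± 0.077 after Printex 90 and 2.75 ± 0.016 in vehicle controls (SD, n = 4 each), a difference of -0.074 (exact 2-sided permutation p = 0.143, where 70 assignments allow no p below 0.0286). Without Printex 90 replicate 3 the difference was -0.11 (exact 2-sided permutation p = 0.0286, the lowest possible with 35 assignments). As replicate 3 alone kept the groups from separating, leaving it out fixed that p in advance, and nothing was concluded from it. Leaving out any other array gave an exact permutation p between 0.171 and 0.229. With quantile normalization the difference was -0.13 (exact permutation p = 0.0857), and in the authors' deposited table it was -0.020 (exact permutation p = 0.486). This was the 1 ratio tested, because miR-214* was not detected on all arrays.

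A pair of further ratios was chosen after their values were seen and was not tested. The log2 ratio of miR-199b* to miR-199a-5p was 1.88, 1.75, 2.07 and 1.92 in Printex 90 samples, against 2.00, 2.08, 2.04 and 2.02 in vehicle controls. Printex 90 replicates 1, 2 and 4 lay below all controls, and replicate 3 lay within the control range. The log2 ratio of miR-214 to miR-199a-5p was -1.80, -1.88, -1.86 and -1.89 in Printex 90 samples, against -1.87, -1.75, -1.80 and -1.86 in vehicle controls, and the groups were interleaved.

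**Figure D4:**
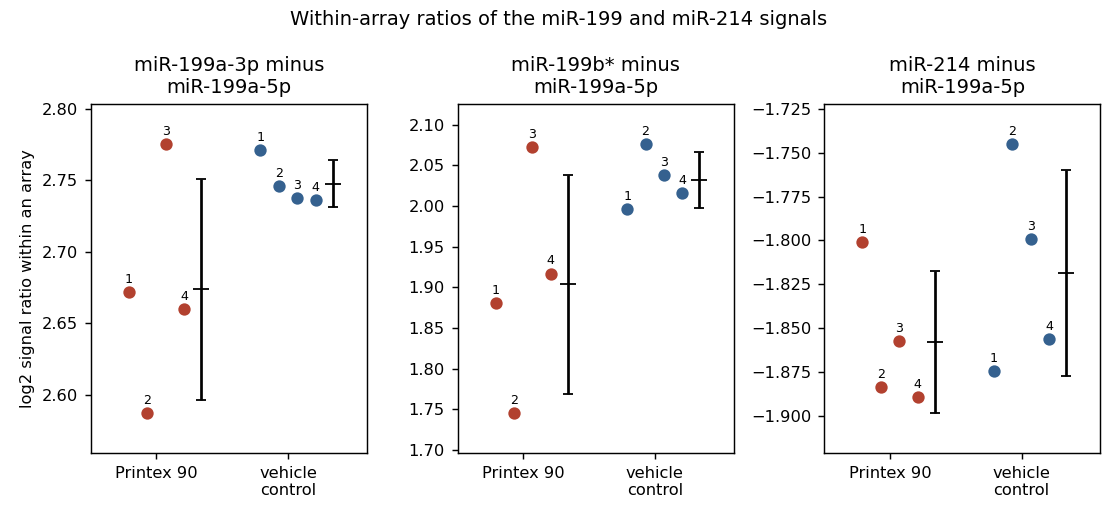
Log2 ratio of 2 miRNA signals within each array, with Printex 90 samples in red, vehicle controls in blue, replicate numbers above the points and mean ± SD (n = 4) as bars. In the left and middle panels Printex 90 replicates 1, 2 and 4 lie below the 4 controls and replicate 3 does not.

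The members' deviations from their group means over the 8 arrays are described by Pearson's r. This is a description only, since all miRNAs of an array share its scaling value. It was 0.74 between miR-199a-3p and miR-199b*, 0.71 between miR-199a-5p and miR-214, and 0.69 between the strands of miR-199a. It was 0.41 between miR-199a-3p and miR-214, 0.095 between miR-199a-5p and miR-199b*, and 0.0092 between miR-199b* and miR-214. Among 256 other tested miRNAs, the mean r with these 4 members was highest for miR-30b* (0.72), miR-221 (0.70), miR-18a (0.68), miR-203 (0.68) and miR-27b (0.68), with a median of 0.13 over the 256. The corresponding mean Spearman's rho was 0.71 for miR-30b*, 0.66 for miR-221, 0.67 for miR-18a, 0.65 for miR-203 and 0.64 for miR-27b. These values depended on the scaling: with quantile normalization the mean r of miR-27b was 0.19.

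Of 14 other miRNAs listed for smooth muscle and stromal cells, 13 were on the array and 12 were tested, 4 above and 8 below 0, with a median log2 difference of -0.032 and 0 called. The summed signal of the tested members was 18.4 to 20.8 in Printex 90 samples and 19.9 to 20.5 in vehicle controls. The smallest p values were those of miR-195 and miR-497, which share a cluster and restrain cell cycle genes. miR-195 measured 3.07 ± 0.227 after Printex 90 and 3.23 ± 0.127 in vehicle controls (log2 difference -0.075), and miR-497 measured 2.47 ± 0.200 after Printex 90 and 2.56 ± 0.0666 in vehicle controls (-0.056; SD, n = 4 each). Their limma adjusted p was 0.764 for miR-195 and 0.767 for miR-497. The smooth muscle miRNAs miR-143 and miR-145 differed by -0.043 (SE 0.16) and -0.12 (SE 0.20), so their intervals were wider than those of the miR-199 strands (SE 0.049 to 0.053). Intervals of miR-100 (SE 0.042), miR-99a (SE 0.046) and miR-152 (SE 0.047) were narrower than those of the miR-199 strands, and the rest of the 12 were wider.

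Markers of other cells the lung samples could hold, and a list of fibrosis-linked miRNAs, gave 0 calls too. The lists share some members, such as miR-155. Of the 11 tested epithelial miRNAs, 1 lay at the floor on every array and had a difference of 0. Below, each list has its count above and below 0, its median log2 difference and the differences of its 2 members with the smallest p. Of 20 fibrosis-linked miRNAs 6 were above and 14 below (median -0.025; miR-21 0.49, miR-155 0.50). Endothelial miRNAs split 0 and 9 (-0.089; miR-126-5p -0.20, miR-27a -0.11), and leukocyte miRNAs 3 and 6 (-0.020; miR-155 0.50, miR-181b -0.096). Epithelial miRNAs split 8 and 2 (0.039; miR-31 0.20, miR-141 0.097), and those of multiciliated cells 4 and 1 (0.14; miR-449a 0.33, miR-34b-5p 0.15). Erythroid miRNAs split 0 and 3 (-0.25; miR-486 -0.25, miR-144 -0.27), and striated muscle miRNAs 0 and 4 (-0.74; miR-206 -0.30, miR-1 -0.77). The difference of miR-1 was imprecise (SE 0.91, 95% interval -2.93 to 1.38), and its highest array exceeded its lowest by 11.9-fold. Its signal was 0.518 ± 0.691 after exposure and 0.606 ± 0.350 in vehicle controls (SD, n = 4 each). The SE of miR-206 was 0.13, and its interval also included 0. Nothing was therefore concluded from the direction of the striated muscle list. The medians of the epithelial, multiciliated, leukocyte and fibrosis-linked lists, and of the smooth muscle and stromal list, changed sign under at least 1 alternative, and those of the endothelial, erythroid and striated muscle lists did not. The limma adjusted p of these miRNAs was 0.203 for miR-21 and between 0.706 and 0.768 for the rest. The part of any of these cell types in the members' values was not tested.

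**Figure D5:**
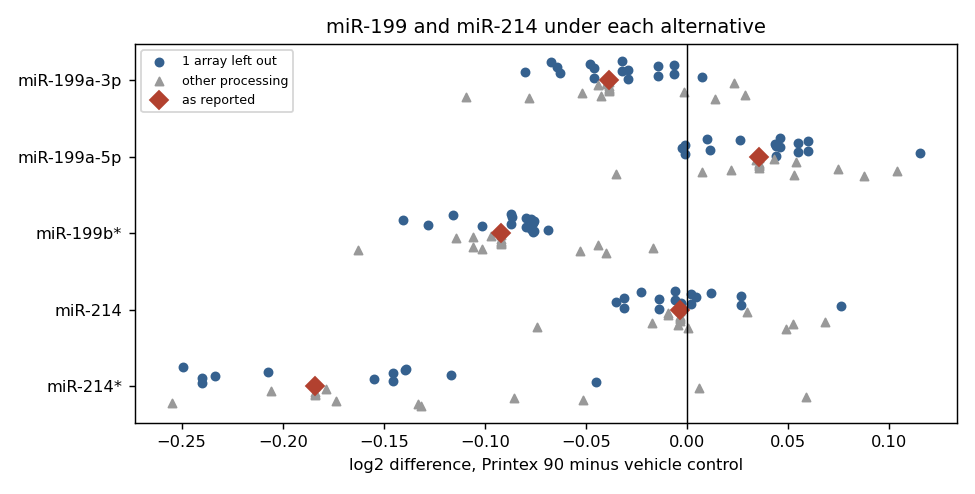
Log2 difference, Printex 90 minus vehicle control, of each member as reported (red diamond), with 1 array left out (blue circles, with and without rescaling) and under other processing (grey triangles, vertical offsets only separate the points). miR-199b* lies below 0 throughout, between -0.16 and -0.017, and the other 4 members have points on both sides of 0.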

How the data were processed

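Per the file headers, each deposited intensity is a spot signal of Agilent Feature Extraction 10.7.3.1 (grid 021828, 1 colour), background-subtracted within its array. Per the labels' protocols, small-RNA-enriched RNA was isolated by miRvana kit and labelled by the Agilent miRNA procedure. The authors' deposited table of log2 values was used as an alternative, and no source used here describes how it was made. It was compared with a quantile normalization of log2 median spot signals, taken as the median over the spots of each miRNA. The correlation was 1 on every array, which does not by itself show equal values. Its column medians were 5.41 to 5.43.

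Control spots and outlier-flagged spots (2.25% to 2.76%) were dropped, and saturation was absent. Spots were averaged per probe and the 1857 probes summed to 650 miRNAs, 611 of them from mouse. Detection required that 50% or more of the kept spots of any probe were well above background. Signals were divided by the scaling value, floored at 0.0388 (the 5th percentile of detected signals) and log2 transformed. limma 3.58.1 (lmFit and eBayes, R 4.3.3) was fitted to the 268 mouse miRNAs with detection on 4 or more arrays, with Benjamini-Hochberg adjustment, after being tested on simulated data. Named miRNAs were all members, the 2 tested miRNAs of each list with the smallest p, and the 5 with the highest mean r. miR-99a, miR-100, miR-143, miR-145, miR-152, miR-761 and the viral miRNA were added after their values were seen. Members and lists were chosen with earlier results of these data known.

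Alternatives changed the scaling, background correction, detection filter, probe summary, floor, outlier spots, variance model, array weights and replicate block, used the authors' table, or left out each array.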

Additional observations from a re-analysis of the deposited data

Results flagged for a closer look

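Dixon's gap, the distance of the extreme sample to its neighbour as a share of the range, was computed in 42 groups of 4 samples. It passed the 95% limit of 0.829 in 1 group, and about 2.1 would pass by chance (1 in 20). In that group, miR-199b* after Printex 90, replicate 3 had a log2 relative signal of 1.304 and the next sample 1.11, a gap of 0.979. Replicate 3 also passed the limit as the highest sample with the total gene signal (0.979), with the mean log2 of the probes (0.969) and with outlier spots kept (0.935). It was the highest but did not pass with every mouse miRNA in the scaling percentile (0.372) or with normexp background correction (0.618). The largest gap was on the low side, and did not pass, with quantile normalization (0.810), with the brightest probe (0.546), in the authors' deposited table (0.635) and without scaling (0.402).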

How the results depend on the processing

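Over 33 alternatives (27 for miR-214*) no member passed an adjusted p of 0.05 with limma, and miR-199b* kept its direction in all of them. Log2 differences that changed sign were, with every mouse miRNA in the scaling percentile, 0.014 for miR-199a-3p and 0.049 for miR-214. With quantile normalization they were 0.00015 for miR-214, 0.036 for miR-195 and 0.0042 for miR-181b, and without scaling -0.035 for miR-199a-5p. With the brightest probe they were 0.028 for miR-199a-3p, 0.052 for miR-214 and 0.011 for miR-497. With normexp, added after seeing the data because the planned mean signal was not among the columns used, they were 0.068 for miR-214, 0.059 for miR-214* and 0.017 for miR-181b. In the authors' deposited table they were 0.023 for miR-199a-3p, 0.030 for miR-214, 0.0057 for miR-214* and 0.076 for miR-126-5p, and with array weights -0.0059 for miR-34b-5p. The cause was not tested.

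Without scaling the median was -0.12 over all tested miRNAs, -0.11 over the members, -0.10 over the stromal list and -0.096 over the fibrosis-linked list. With the brightest probe it was 0.010 over all tested, 0.028 over the members and 0.032 over the stromal list. With normexp it was 0.036 over all tested and 0.059 over the members, and the members' median in the authors' deposited table was 0.023. Medians of other lists that changed sign reached -0.015 for epithelial miRNAs (no scaling), -0.0059 for multiciliated (array weights) and 0.056 for leukocyte (without Printex 90 replicate 3), and the fibrosis-linked median reached 0.027 (brightest probe).

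Leaving out 1 array at a time, also with scaling and tested set kept (added after seeing the data), gave -0.080 to 0.0074 for miR-199a-3p, -0.0026 to 0.12 for miR-199a-5p, -0.035 to 0.076 for miR-214 and -0.084 to 0.0029 for miR-497. With scaling kept, miR-199a-5p was -0.00093 without Printex 90 replicate 2. miR-214 was then 0.0044 without Printex 90 replicate 3, 0.026 without Printex 90 replicate 4, 0.0020 without vehicle control replicate 1 and 0.012 without vehicle control replicate 2. The 3p to 5p ratio ran from -0.11 to -0.045, and under the other alternatives from -0.13 (quantile normalization) to -0.020 (the authors' deposited table). The number of called miRNAs ran from 0 to 3: without Printex 90 replicate 3 limma called 2 (miR-146b and miR-21), and with scaling kept 3 (also miR-135b).

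Same-numbered samples' deviations correlated at -0.13, -0.38, -0.47 and 0.44, so the numbers were not taken to pair samples. With the replicate number as a block, limma called 0 miRNAs, the members' adjusted p was 0.744 to 0.972, and the ratio's exact permutation p was 0.25. With the floor doubled miR-214* and miR-206 lay at the floor throughout and gave no value. miR-214* was also not tested without Printex 90 replicate 2 or vehicle control replicate 1, 3 or 4, unless the tested set was kept. miR-214* is limited by signal near background.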
